A study of Mus musculus with 2 samples.

Results

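The genes *Gad1*, *Gad2*, *Slc32a1*, *Slc6a11* and *Abat* cover the synthesis, vesicular release, uptake and breakdown of GABA, and these 5 were taken by name from the 25556 genes counted in brainstem nuclei. All 5 had counts in both libraries. GABA is, with glycine, the main inhibitory transmitter of the brainstem. *Gad1* and *Gad2* encode the glutamate decarboxylases that make GABA from glutamate, and *Slc32a1* encodes the vesicular transporter that loads both GABA and glycine into synaptic vesicles. *Slc6a11* encodes a GABA transporter of the plasma membrane that is known mainly from astrocytes, and *Abat* encodes the mitochondrial transaminase that starts the breakdown of GABA in neurons and astrocytes.

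Nuclei came from the frozen brainstem of 1 WT and 1 HET mouse, both female, at postnatal day 41, untreated and on the C57Bl6 background. The HET mouse carried Scn1a A1783V/WT, a knock-in missense change in the gene of a voltage-gated sodium channel alpha subunit that models Dravet Syndrome, and the WT mouse, with intact copies, came from littermates of such mice. HET mice came from crosses of floxed *Scn1a* males to Sox2-Cre females, and Sox2-Cre acts in the early embryo, so that the change is not limited to inhibitory neurons. With 1 library per genotype there was no replicate check and no test between genotypes, and a difference of genotype cannot be told apart from one of animal, dissection or library preparation. All intervals below are exact 95% intervals (Poisson for a level, Clopper-Pearson for a share, conditional binomial for a ratio) and cover counting error only. *Scn1a* itself was at 0.15 on the log2 scale in HET over WT, which is no check of the labels because a missense transcript is counted like any other.

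The WT library held 70301390 unique molecular identifiers (UMIs, each standing for 1 captured RNA molecule) in 9259 nuclei, and the HET library 66176778 in 9022 nuclei, with medians of 5456 and 5646 UMIs per nucleus. The libraries shared 23 cell barcodes, of which 6 lay in the same cluster. The authors' 16 clusters and 34 subclusters were used as deposited, and the 12 clusters and 27 subclusters that reached 30 nuclei in WT and in HET were compared between genotypes. The oligodendrocyte, astrocyte and endothelial values marked as such are from nuclei whose cluster and reference label name the same type. The data went against the name of the micro cluster, in which the 5 neuron markers summed to 14098 CPM (UMIs of a gene scaled to a common total of 1000000) in WT and 13714 CPM in HET and the 5 microglia markers to 995 and 1052 CPM, so that it is called by its deposited name only. The clusters epend.2, neuron.5, neuron.6, neuron.8 and neuron.9 came mostly from 1 library. The libraries also differed in markers of neighbouring tissue: all 3 granule cell markers were higher in HET with a median log2 ratio of 2.75, and all 3 choroid plexus markers were lower with a median of −2.86.

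*Gad1*, *Gad2* and *Slc32a1* all lie on the plus strand of chromosome 2 in GRCm38, the assembly behind the authors' mm10 reference. *Gad1* spans chr2:70553072-70602014 with 17 exons in its principal transcript, *Gad2* chr2:22622205-22693874 with 16 exons, and *Slc32a1* chr2:158610767-158615748 with 2 exons (GENCODE vM21). The bases before the RefSeq start of each, cut where an annotated exon begins, are shown because a neuron makes and releases GABA through these genes. Capitals mark the E-box CANNTG, the motif bound by basic helix-loop-helix factors. The windows are chr2:70561879-70562041 for *Gad1*, chr2:22622077-22622204 for *Gad2* and chr2:158610508-158610757 for *Slc32a1*, from RefSeq on GRCm38.p6. The RefSeq starts are at 70562129, 22622327 and 158610758, so that only the *Slc32a1* window reaches its start. The *Gad1* window lies inside the gene as GENCODE places it.
Gad1: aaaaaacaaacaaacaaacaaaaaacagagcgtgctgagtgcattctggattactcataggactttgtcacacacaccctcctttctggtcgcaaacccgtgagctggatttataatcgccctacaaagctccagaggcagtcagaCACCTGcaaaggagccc
Gad2: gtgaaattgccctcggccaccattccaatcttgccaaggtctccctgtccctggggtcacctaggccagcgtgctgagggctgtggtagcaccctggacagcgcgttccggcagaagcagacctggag
Slc32a1: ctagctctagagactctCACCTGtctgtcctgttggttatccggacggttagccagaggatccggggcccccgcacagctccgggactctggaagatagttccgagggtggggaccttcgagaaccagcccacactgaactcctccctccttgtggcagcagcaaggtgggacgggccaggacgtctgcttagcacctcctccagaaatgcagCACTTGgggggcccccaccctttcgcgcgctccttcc

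On both strands, the E-box had 1 match in the 163 bases of *Gad1*, 2 in the 250 bases of *Slc32a1* and 0 in the 128 bases of *Gad2*. Windows of the same lengths held an E-box in 52.1%, 66.2% and 43.9% of 32851 RefSeq promoters. The TATA box TATAAA had 1 match, in the window of *Gad1* and on the strand opposite to the gene (TTTATA as printed). On either strand 7.78% of windows of that length held it. The letters AGATAA, searched because GATA factors specify inhibitory neurons of the brainstem, and GGGCGG were in none of the windows. None of the 4 motifs searched was thus in all 3 windows.

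*Slc6a11* lies at chr6:114131241-114249952 and *Abat* at chr16:8513429-8621568, both on the plus strand. *Gad1os* on the opposite strand overlaps *Gad1*, and *Gm14205* on the opposite strand overlaps *Slc32a1*. The libraries mark strand, but the strand setting of the authors' counting is not given in the sources used here. *Gm14205* itself had 7 UMIs in WT and 27 in HET.

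Among the compared clusters, the GABA synthesis and release genes were highest in the large cluster neuron.1 and in the small cluster neuron.3. In neuron.1, which held 5032 WT and 4079 HET nuclei, *Gad2* stood at 78.6 in WT and 81.0 CPM in HET. Its level in neuron.3 was 78.3 in WT and 64.5 CPM in HET, and in neuron.2 15.3 and 13.6 CPM. The lowest *Gad2* level among the compared clusters was that of neuron.4 in HET, at 5.64 CPM, with 10.9 CPM in WT. The levels of *Gad2* in neuron.1 and neuron.3 overlapped in their intervals in WT and did not in HET, whereas neuron.2 and neuron.4 lay below both in each library.

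*Gad1* had the same order over these 4 clusters. It stood at 39.4 in WT and 38.3 CPM in HET in neuron.1, at 37.6 and 28.2 CPM in neuron.3, at 10.3 and 6.55 CPM in neuron.2 and at 1.98 and 2.92 CPM in neuron.4. *Slc32a1* was at 48.5 in WT and 28.4 CPM in HET in neuron.1, and at 51.0 and 29.9 CPM in neuron.3. In neuron.2 it was at 18.9 in WT and 14.1 CPM in HET, and in neuron.4 at 8.40 and 5.25 CPM. *Slc32a1* was spread over other clusters too, with 33.7 in WT and 22.9 CPM in HET in the oligodendrocyte cluster. In the astrocyte cluster it was at 31.7 and 23.1 CPM. Within each library, neuron.1 and neuron.3 thus did not differ in *Slc32a1* beyond counting error, and the HET value lay below the WT value in both, without overlap of the intervals.

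The glycine marker followed the same clusters. *Slc6a5*, the transporter that marks glycine neurons, stood at 109 in WT and 71.6 CPM in HET in neuron.1 and at 217 and 142 CPM in neuron.3, and reached 13.9 and 16.1 CPM in neuron.2. The clusters neuron.6, neuron.8 and neuron.9, which came mostly from WT, held little of the GABA genes or rested on few nuclei. In WT *Gad2* was at 7.77 CPM in the 120 nuclei of neuron.6 and at 3.08 CPM in the 44 nuclei of neuron.8, whose cholinergic markers summed to 401 CPM. The 35 WT nuclei of neuron.9 held 11 *Gad2* UMIs, or 130 CPM, at a median of only 2034 UMIs per nucleus. Choroid plexus markers summed to 5095 CPM and oligodendrocyte markers to 5001 CPM in the same 35 nuclei, beside neuron markers at 4576 CPM.

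**Figure D1:**
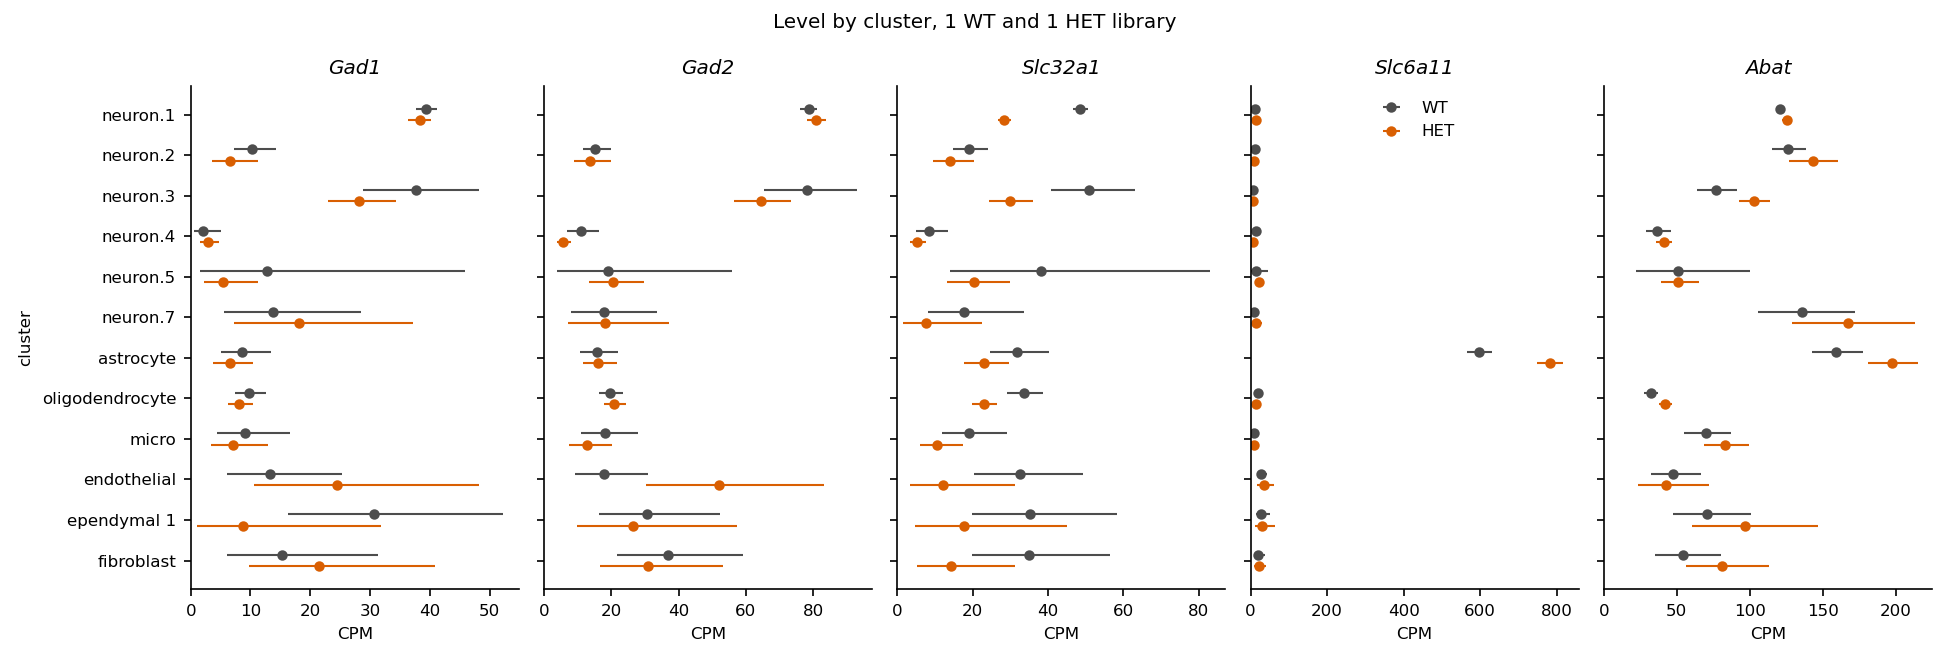
Level of each gene (CPM, horizontal axis) in the 12 compared clusters (vertical axis), with WT in grey and HET in orange; points are CPM of summed UMIs and bars exact 95% Poisson intervals. *Gad1*, *Gad2* and *Slc32a1* peak in neuron.1 and neuron.3, *Slc6a11* stands out in the astrocyte cluster at 598 and 782 CPM, and *Abat* is found in neurons and astrocytes.

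The uptake and breakdown genes had other patterns. *Slc6a11* stood at 620 in WT and 784 CPM in HET in astrocytes, against 11.4 and 12.99 CPM in the neuronal clusters and 17.9 and 14.3 CPM in oligodendrocytes. Astrocytes were the only compared cluster in which *Slc6a11* passed 50 CPM. *Abat* was shared between cell types, with 163 in WT and 199 CPM in HET in astrocytes, 121 and 126 CPM in neuron.1, 127 and 143 CPM in neuron.2, 136 and 167 CPM in the serotonergic cluster neuron.7 and 31.9 and 41.4 CPM in oligodendrocytes. In neuron.7, where serotonergic markers summed to 2256 in WT and 3435 CPM in HET, the interval of *Abat* overlapped that of neuron.1 in WT and lay above it in HET.

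Nuclei that should lack GABA synthesis still held UMIs of it, and these set the level below which a UMI says little. Oligodendrocytes, at medians of 2738 and 2852 UMIs per nucleus, held *Gad1* at 9.64 in WT and 8.18 CPM in HET, *Gad2* at 19.8 and 21.0 CPM and *Slc32a1* at 33.9 and 23.0 CPM. As a share of the level in the neuronal clusters of the same library, *Gad1* in oligodendrocytes came to 28.1% in WT and 25.6% in HET, and *Gad2* to 29.0% and 30.9%. *Slc32a1* came to 78.4% and 90.7%. Astrocytes gave nearly the same, with *Gad2* at 22.9% in both libraries and *Slc32a1* at 71.0% and 90.3%. The glycine marker *Slc6a5* was near the decarboxylases in oligodendrocytes, at 23.6% and 24.7%, and at 11.4% and 25.4% in astrocytes. The neuron marker *Rbfox3* was at 6.83% and 12.6% in oligodendrocytes. The glutamate transporter *Slc17a6* lay between, at 56.6% in WT and 48.8% in HET in oligodendrocytes and at 60.8% and 45.6% in astrocytes. A high level in glia was thus not particular to *Slc32a1*.

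*Slc32a1* thus stood apart from *Gad1* and *Gad2* in the glia. There were 0.502 *Gad1* UMIs for each *Gad2* UMI in WT neuronal clusters and 0.487 (interval 0.347 to 0.676) in WT oligodendrocytes, and 0.471 and 0.390 (0.288 to 0.524) in HET. The ratio of *Slc32a1* to *Gad2* differed between neurons and glia. It was 0.634 (0.603 to 0.667) in WT neuronal clusters and 1.71 (1.35 to 2.18) in WT oligodendrocytes, and 0.374 (0.351 to 0.398) and 1.10 (0.883 to 1.36) in HET. In astrocytes the ratio was 1.97 in WT and 1.48 in HET, so that both glial types held more *Slc32a1* per *Gad2* than the neurons of their own library, and where these UMIs came from was not tested.

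Per nucleus the neurons stood well above the glia for all 3 genes. Per 100 nuclei there were 66.1 *Gad2* UMIs in WT neuronal clusters and 6.53 in oligodendrocytes, and 41.9 *Slc32a1* UMIs against 11.2. In HET *Slc32a1* reached 25.1 UMIs per 100 nuclei in neuronal clusters and 7.59 in oligodendrocytes. Neuronal nuclei were deeper, with medians of 7729 and 8390 UMIs, so nuclei of 2000 to 4000 UMIs were compared at like depth. In that window WT neuron.1 nuclei held 34.5 *Gad2* UMIs per 100 nuclei (30.1 to 39.3) and oligodendrocytes 6.14 (4.75 to 7.81). In HET the *Gad2* values were 41.1 (32.2 to 51.8) and 6.79 (5.60 to 8.17). For *Slc32a1* they were 25.6 (21.8 to 29.8) and 11.8 (9.85 to 14.1) in WT, and 20.6 (14.4 to 28.5) and 7.998 (6.70 to 9.48) in HET. The excess of neurons over oligodendrocytes at like depth was thus larger for *Gad2* than for *Slc32a1*, and none of these intervals overlapped between the cell types.

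A single UMI of these genes did not mark an inhibitory neuron. Without thinning, 32.4% of WT and 32.8% of HET neuronal nuclei held a *Gad2* UMI, and 6.08% and 6.41% of oligodendrocytes. With every nucleus thinned to 1000 UMIs (no nucleus was shallower), the *Gad2* share was 6.91% and 6.98% in neuronal clusters and 2.15% and 2.16% in oligodendrocytes. The *Slc32a1* share was 5.08% (4.55 to 5.66) in WT neuronal clusters and 3.83% (2.98 to 4.84) in oligodendrocytes, and 3.01% (2.57 to 3.50) and 2.58% (1.98 to 3.30) in HET. Over both libraries it was 4.11% in neuronal clusters and 3.11% in oligodendrocytes, a difference of 1.00 percentage points (0.358 to 1.64). After thinning to 1000 UMIs the excess of neurons was thus small beside the share in cells that should lack the gene. Thinning took more UMIs from the deeper neuronal nuclei. Among the nuclei compared at like depth above, which were not thinned, the *Slc32a1* intervals of neurons and oligodendrocytes did not overlap in either library.

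Several UMIs in a nucleus separated the cell types, though the neuronal nuclei were also deeper. Of the WT neuronal nuclei, 512 of 6118 (8.37%, interval 7.69 to 9.09) held at least 5 UMIs of *Gad1*, *Gad2* and *Slc32a1* together, and of the HET nuclei 382 of 5393 (7.08%, 6.41 to 7.80). Of the oligodendrocytes 0 of 1760 WT and 0 of 2371 HET nuclei did, which allows shares of up to 0.170% and 0.127% (3 counts of the total), and of the astrocytes 0 of 584 and 0 of 704, which allows up to 0.514% and 0.426%. In neuron.1 the share was 9.64% in WT and 8.61% in HET, and in neuron.3 13.99% (20 of 143 nuclei) and 9.09% (29 of 319). In neuron.2, by contrast, 4 of 542 WT nuclei and 0 of 275 HET nuclei passed. Among nuclei of 2000 to 4000 UMIs the share with at least 3 UMIs of the 3 genes was 9.24% in WT neuron.1 and 0.186% in oligodendrocytes, and 8.57% and 0.120% in HET. At 5 UMIs in that window, neuron.1 was only at 1.39% (0.636 to 2.62) in WT and 1.14% (0.139 to 4.07) in HET. Oligodendrocytes were at 0 there, with upper limits of 0.343% and 0.222%, so that the intervals overlapped in HET.

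**Figure D2:**
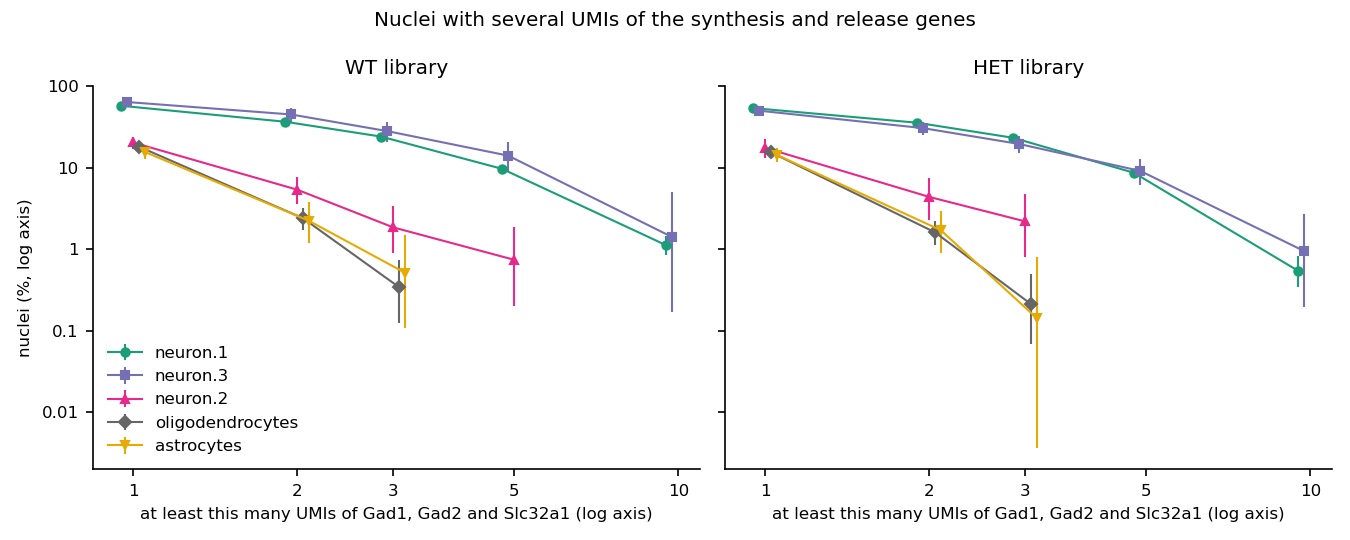
Percentage of nuclei (vertical axis, log) with at least the number of UMIs of *Gad1*, *Gad2* and *Slc32a1* together given on the horizontal axis (log), in the WT library (left) and the HET library (right); bars are exact 95% Clopper-Pearson intervals and shares of 0 are not drawn. Oligodendrocytes and astrocytes fall to at most 0.514% at 3 UMIs and to 0 at 5, while neuron.1 is at 9.64% in WT and 8.61% in HET at 5 UMIs.

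The nuclei with at least 5 UMIs held more of the glycine marker than neuronal nuclei with no UMI of the 3 genes, above all in WT. At least 2 *Slc6a5* UMIs were found in 54.3% of them in WT and 28.5% in HET, against 6.20% and 5.52% of neuronal nuclei with no UMI of the 3 genes. The first set was deeper, with medians of 12699.5 and 11042 UMIs against 7054 and 8001, which raises any share at a fixed number of UMIs, so the levels in CPM are the better comparison. *Slc6a5* stood in them at 178 in WT and 97.0 CPM in HET, against 34.4 and 29.2 CPM in the nuclei with none. The glutamate transporter *Slc17a6* went the other way, at 17.8 in WT and 12.4 CPM in HET against 117 and 125 CPM in the nuclei with none. *Abat* was at 141 and 149 CPM in the nuclei with at least 5 UMIs and at 96.9 and 97.8 CPM in those with none, so that the breakdown enzyme was present in both and higher in the first. Within the first set *Gad2* stood at 245 in WT and 309 CPM in HET and *Slc32a1* at 97.5 and 69.0 CPM, values that partly follow from how these nuclei were picked. The transporter of *Slc32a1* also loads glycine, and *Slc32a1* was higher in WT. The part of this way of picking in the *Slc6a5* differences was not tested, and the nuclei between the sets were left out.

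Co-detection at 2 UMIs went the same way. The nuclei with and without 2 UMIs of a gene were not matched in depth, and more depth raises any share at a fixed number of UMIs. Of the 948 WT neuronal nuclei with at least 2 *Gad2* UMIs, 45.6% (42.4 to 48.8) also held at least 2 of *Slc6a5*, and of the 902 in HET 25.9% (23.1 to 28.9). Among neuronal nuclei without 2 *Gad2* UMIs these shares were 15.3% and 11.4%. *Slc17a6* at 2 UMIs was found in 5.91% of the WT and 4.102% of the HET *Gad2* nuclei, against 19.5% and 23.9% of the rest. *Slc32a1* at 2 UMIs accompanied *Gad2* in 20.3% of the WT nuclei and 8.87% of the HET nuclei, against 7.02% and 2.89% of the rest. *Gad1* accompanied it in 21.0% and 21.3%, against 4.76% and 4.28% of the rest. The shares with *Slc32a1* and *Slc6a5* were lower in HET with intervals that did not overlap, and both were lower in HET in the nuclei without 2 *Gad2* UMIs too.

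The neuron.1 subclusters differed widely in GABA genes. Subcluster 24 was the highest for *Gad1* among the compared subclusters, with 135 CPM in its 73 WT nuclei and 110 CPM in its 46 HET nuclei. Its *Gad2* level was 167 in WT and 90.2 CPM in HET. Subcluster 3 came next for *Gad2* in WT, at 137 CPM in 700 nuclei, and was the highest in HET, at 140 CPM in 798 nuclei. Subcluster 9 was the highest for *Slc32a1* in WT, at 99.6 CPM, and stood at 55.4 CPM in HET. Its *Gad1* level was 90.5 in WT and 60.8 CPM in HET. At the low end in WT, subcluster 0 held *Gad2* at 48.1 in WT and 62.2 CPM in HET.

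The share of nuclei with at least 5 UMIs of the 3 genes was highest in the same subclusters. It was 42.5% (31 of 73) in WT and 19.6% (9 of 46) in HET in subcluster 24, and 21.0% (147 of 700) and 15.9% (127 of 798) in subcluster 3. In neuron.3 the GABA genes belonged to subcluster 13, where *Gad2* stood at 82.7 CPM in 130 WT nuclei and 96.0 CPM in 219 HET nuclei. The other neuron.3 subcluster, 27, held 13 WT and 100 HET nuclei and had *Gad2* at 4.9 CPM in HET, below the oligodendrocyte level of that library. The lower *Gad2* of neuron.3 as a whole in HET therefore went with a larger share of subcluster 27, since within subcluster 13 the log2 ratio was 0.21 (−0.11 to 0.54). *Slc32a1* in subcluster 13 was at 53.0 in WT and 41.7 CPM in HET, and its log2 ratio of −0.34 (−0.78 to 0.10) included 0.

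**Figure D3:**
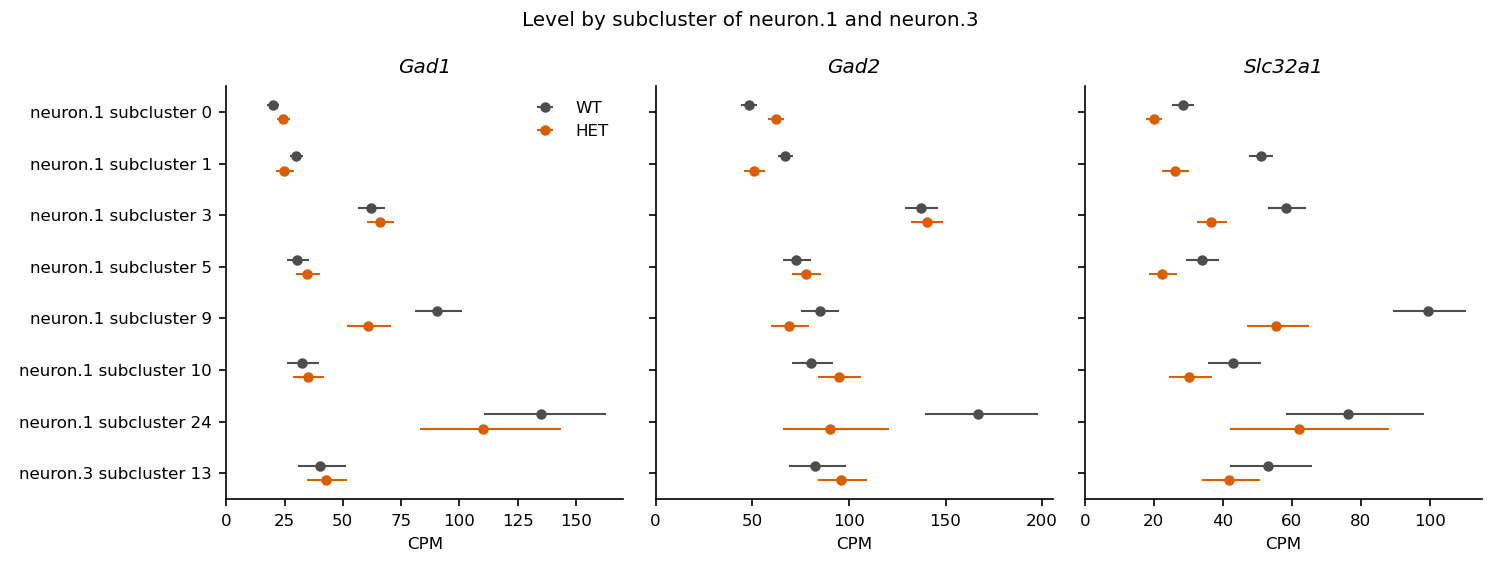
Level (CPM, horizontal axis) of *Gad1*, *Gad2* and *Slc32a1* in the 7 compared neuron.1 subclusters and in neuron.3 subcluster 13 (vertical axis), WT in grey and HET in orange, with exact 95% Poisson intervals. *Slc32a1* is lower in HET in each row, whereas *Gad1* and *Gad2* lie on either side of WT.

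Over all nuclei, *Slc32a1* was the only member past 1.5-fold between the libraries. It stood at 41.5 CPM in WT (2916 UMIs) and 24.5 in HET (1621 UMIs). Of all 16347 genes with at least 200 UMIs, 12.7% were lower and 6.29% higher in HET by that rule (past 1.5-fold with an interval that excludes 1), and among 21997 genes with at least 20 UMIs 13.6% and 9.04%, so that 1 lower member of 5 is not far from the background. *Gad2* was at 60.6 in WT and 58.5 CPM in HET, with a log2 ratio at −0.05 (−0.11 to 0.01). *Gad1* was at 30.6 CPM and 27.4 CPM, a log2 ratio of −0.16 (−0.25 to −0.07), which shrank to −0.044 when every cluster had the same weight in both libraries. *Abat* was at 106 and 108 CPM, a log2 ratio of 0.03 (−0.02 to 0.07). In such sums fewer nuclei of a type and less RNA per nucleus cannot be told apart.

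*Slc6a11* was at 30.0 in WT and 43.5 CPM in HET over all nuclei, a log2 ratio of 0.54 (0.46 to 0.62) and just under 1.5-fold. With every subcluster at the same weight in both libraries it was 0.21, and the astrocyte cluster held 609 WT and 709 HET nuclei. The median over all genes was −0.10, and against that median *Gad2* turned from −0.05 to 0.05 and *Slc32a1* stood at −0.66. The direction of *Gad2* between the libraries was thus not settled by these counts, while *Slc32a1* stayed lower and *Slc6a11* higher under each scaling and weighting tried.

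*Slc32a1* was lower in HET in 12 of 12 clusters. The interval excluded 0 in neuron.1 at −0.77 (−0.87 to −0.67), in neuron.3 as a whole at −0.77 (−1.20 to −0.34), though not within its subcluster 13 as given above, and in the oligodendrocyte cluster at −0.56 (−0.85 to −0.26). In neuron.1, where 11.3% of genes were called lower and 4.99% higher, *Slc32a1* was the only one of the 5 members called, and over all neuronal clusters, with 11.7% and 6.08%, it was again. Of the 4 members with at least 200 UMIs in oligodendrocytes, 0 were called, beside 11.6% of genes lower and 5.22% higher. *Gad1* was lower in 8 of 12 clusters, *Gad2* in 6, *Slc6a11* in 5 and *Abat* in 1. In neuron.1 *Gad1* was at −0.04 (−0.14 to 0.06) and *Gad2* at 0.04 (−0.03 to 0.11), so that *Gad1* and *Gad2* did not share the ratio of *Slc32a1* in that cluster.

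Oligodendrocyte subclusters came mostly from 1 library each, which bears on the *Slc32a1* value there. Subcluster 8 held 825 WT and 35 HET nuclei, subcluster 6 held 39 and 827, and subcluster 7 held 133 and 730. Only subcluster 2 was balanced, with 768 and 789 nuclei, and in it *Slc32a1* was at 27.2 in WT and 21.6 CPM in HET, with the log2 ratio at −0.33 (−0.84 to 0.17). The size of the difference depended on how this background was taken off. When the oligodendrocyte CPM of the same library was subtracted, the library log2 ratio of *Slc32a1* went from −0.76 to −2.35, and when the oligodendrocyte UMIs per nucleus were subtracted it was −0.92. The first removes nearly all *Slc32a1* counts of HET, as the percentages above show.

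Within neuron.1, *Slc32a1* was lower in HET in all 7 compared subclusters, from −0.97 in subcluster 1 to −0.30 in subcluster 24, and the interval included 0 only in subcluster 24. *Gad1* ran from −0.57 (−0.85 to −0.30) in subcluster 9 to 0.29 (0.05 to 0.55) in subcluster 0. *Gad2* ran from −0.89 (−1.41 to −0.39) in subcluster 24 to 0.37 (0.21 to 0.53) in subcluster 0. Subcluster 1 held 1714 WT and 511 HET nuclei, and both decarboxylases were lower in HET there, at −0.27 and −0.39. In subcluster 3, where *Gad2* was high and nuclei were balanced, *Gad1* was at 0.08 (−0.10 to 0.27), *Gad2* at 0.03 (−0.10 to 0.15) and *Slc32a1* at −0.67 (−0.89 to −0.45). The near-zero decarboxylase ratios of neuron.1 as a whole were thus sums over subclusters that pointed both ways.

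**Figure D4:**
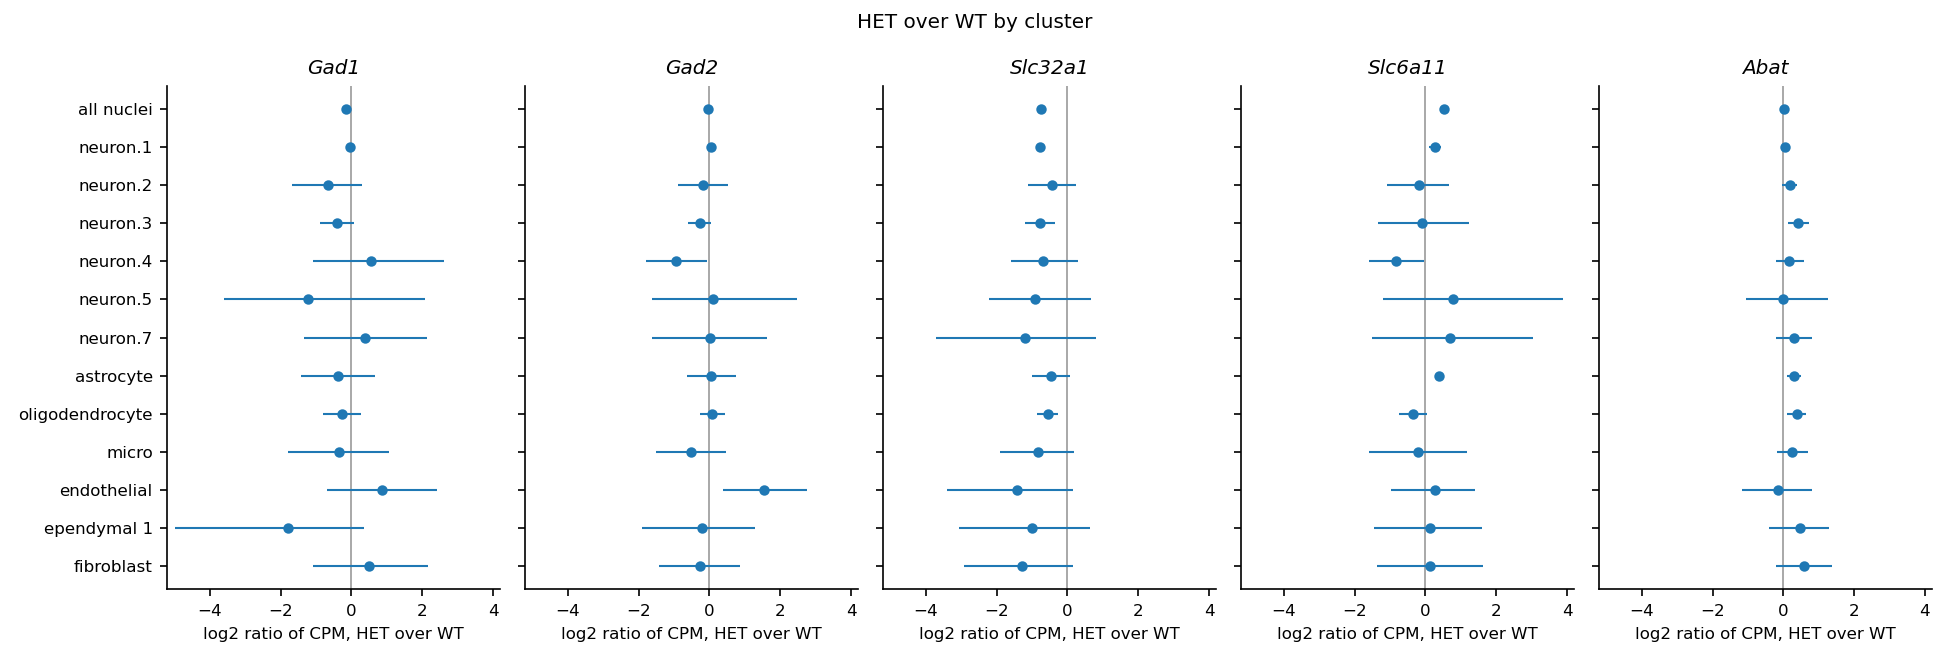
Log2 ratio of CPM, HET over WT (horizontal axis), for each gene over all nuclei and in each of the 12 compared clusters (vertical axis), with exact 95% intervals for counting error. *Slc32a1* lies left of 0 in every row, *Slc6a11* is at 0.54 over all nuclei and 0.39 in the astrocyte cluster, and most other intervals include 0.

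In astrocytes the uptake and breakdown genes were both higher in HET without passing 1.5-fold. *Slc6a11* went from 598 to 782 CPM in the astrocyte cluster, a log2 ratio of 0.39 (0.28 to 0.49), and *Abat* from 159 to 198 CPM, a log2 ratio of 0.31 (0.11 to 0.51). The share of astrocytes with at least 3 *Slc6a11* UMIs was 35.1% in WT and 48.2% in HET, at medians of 2896 and 3316 UMIs. After thinning to 1000 UMIs, the share with any *Slc6a11* UMI was 43.6% (39.6 to 47.8) and 51.8% (48.0 to 55.5). Among 4071 genes tested in astrocytes, 4.79% were called higher and 10.2% lower, and neither gene was among them. The difference in *Slc6a11* was thus present at equal depth and smaller than the call requires.

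Among the compared astrocyte subclusters, only subcluster 4 had an interval for that difference that excluded 0. In subcluster 4 (475 WT and 587 HET nuclei) *Slc6a11* went from 719 to 916 CPM, a log2 ratio of 0.35 (0.24 to 0.46). In subcluster 19 (76 and 66 nuclei) it went from 236 to 183 CPM, at −0.36 (−0.96 to 0.22), and in subcluster 26 (58 and 56 nuclei) from 373 to 388 CPM, at 0.05 (−0.30 to 0.41). The interval of subcluster 26 overlapped that of subcluster 4, and that of subcluster 19 lay just below it. The 6 astrocyte markers had a median log2 ratio of 0.15 in astrocytes and none was called. Their summed level was 6013 in WT and 7774 CPM in HET, and its part in the *Slc6a11* value was not tested.

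Neurons held little *Slc6a11*. At least 3 UMIs were found in 0.229% of WT and 0.241% of HET neuronal nuclei and in 4 of 1760 WT and 0 of 2371 HET oligodendrocytes. The thinned shares were 1.52% and 1.65% in neuronal clusters and 1.66% and 1.53% in oligodendrocytes. Among nuclei of 2000 to 4000 UMIs the *Slc6a11* UMIs per 100 nuclei were 8.17 (6.12 to 10.7) in WT neuron.1 and 4.65 (3.45 to 6.13) in oligodendrocytes, and 8.57 (4.80 to 14.1) and 4.69 (3.71 to 5.85) in HET. In that window neuron.1 was still somewhat deeper, with medians of 3246 and 3544 UMIs against 2754 and 2748, so that whether neurons held *Slc6a11* above the level in oligodendrocytes was not settled by these counts. *Abat* UMIs in neurons stood well above those in oligodendrocytes. At least 3 *Abat* UMIs were found in 14.5% of WT and 16.2% of HET neuron.1 nuclei, in 3.77% and 6.68% of the shallower astrocytes, and in 0.114% and 0.422% of oligodendrocytes. Among nuclei of 2000 to 4000 UMIs the order of neurons and astrocytes turned. In WT there were 30.8 *Abat* UMIs per 100 neuron.1 nuclei (26.7 to 35.4), 49.6 in astrocytes (42.5 to 57.5) and 8.09 in oligodendrocytes, and in HET 45.1 (35.7 to 56.3), 59.7 (52.8 to 67.2) and 10.7. Astrocytes thus held more *Abat* than neuron.1 at like depth in WT, while the intervals overlapped in HET. Outside astrocytes its HET over WT ratio had an interval above 0 in neuron.3, at 0.42 (0.13 to 0.73), in the oligodendrocyte cluster, at 0.38 (0.12 to 0.65), and marginally in neuron.1, at 0.056 (0.001 to 0.11).

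*Slc32a1* is by far the shortest member, at 4.98 kb from start to end, against 48.9 kb for *Gad1*, 71.7 kb for *Gad2*, 108 kb for *Abat* and 119 kb for *Slc6a11*. Gene length went with the ratio over all genes. Genes under 10 kb had a median log2 ratio of −0.36 and 30.6% of them were called lower, genes of 10 to 50 kb a median of −0.15, and genes of 50 kb or more a median of 0.05 with 3.07% called lower. Among 3932 genes under 10 kb, *Slc32a1* itself included, 17.5% had a lower ratio than *Slc32a1*. In neuron.1 16.0% of 3300 did, in oligodendrocytes 43.2% of 1162 and in astrocytes 66.2% of 382. *Slc32a1* thus lay in the lower part of the short genes in neurons. In glia its point value lay near or above their middle, with the counting error of these few UMIs. The part of gene length in its ratio was not tested.

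Transcripts beside *Slc32a1* and *Gad1* had other ratios. *Gm14204*, on the minus strand at chr2:158595472-158610723 with 43 bases between it and the start of *Slc32a1*, was at 27.6 in WT and 28.0 CPM in HET in neuron.1, a log2 ratio of 0.02 (−0.10 to 0.13). It spans 15.3 kb. *Gad1os* was at 11.8 and 14.1 CPM, a log2 ratio of 0.26 (0.09 to 0.43). In the same neuron.1 nuclei *Slc32a1* was at −0.77.

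Of 18 other genes of GABA metabolism and transport, 16 had at least 200 UMIs, and over all nuclei 1 was called higher, 2 were called lower and 13 were not called, with a median log2 ratio of −0.18 against −0.10 over all genes. These counts are near the background of 6.29% higher and 12.7% lower over all genes. The lower genes were *Slc38a2*, a transporter that supplies neurons with glutamine, at 262 in WT and 147 CPM in HET, and *Slc6a13*, a GABA transporter of the meninges and vessels, at 5.80 and 3.57 CPM. All 3 endothelial markers were also lower, with a median of −1.02, as were 2 of 4 markers of fibroblasts and mural cells, with a median of −0.57 over the 4, and their part in the *Slc6a13* value was not tested. The higher gene was *Gadl1*, a relative of the decarboxylases that is known to act mainly on amino acids other than glutamate, from 54 to 211 UMIs. *Gls2*, a glutaminase, was at −0.40 and *Glul*, the glutamine synthetase of glia, at 0.21. *Aldh5a1*, which follows *Abat* in GABA breakdown, was at 0.16.

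**Figure D5:**
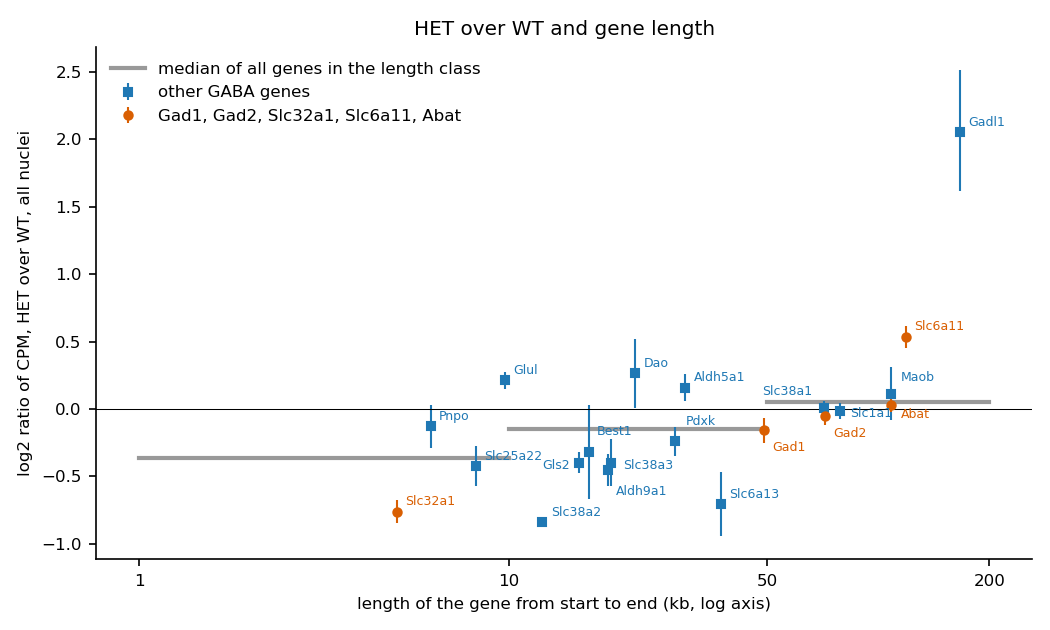
Log2 ratio of CPM, HET over WT, over all nuclei (vertical axis) against gene length from start to end (kb, horizontal axis, log) for the 5 genes in orange and the 16 other GABA genes with at least 200 UMIs in blue, with exact 95% intervals; grey bars are the medians of all genes in 3 length classes. *Slc32a1*, the shortest gene drawn, is at −0.76, below the median of −0.36 of genes under 10 kb.

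Genes of inhibitory neuron identity included none called higher. Of 16 listed genes 15 had counts and 12 had at least 200 UMIs, and *Dlx2* was not analysed here. Over all nuclei 0 were called higher and 5 lower by the rule above (*Gata2*, *Tal1*, *Lhx5*, *Otx2* and *Npy*), with a median log2 ratio of −0.47, beside 12.7% lower and 6.29% higher over all genes. In the neuronal clusters 3 of 11 tested were lower (*Tal1*, *Lhx5* and *Npy*), and in neuron.1 2 of 10 (*Tal1* and *Npy*). Over all nuclei 30.6% of genes under 10 kb and 3.07% of genes of 50 kb or more were called lower. The part of gene length in the counts of identity genes was not tested. *Otx2*, which is also a gene of the choroid plexus, had only 17 of its 152 WT UMIs and 33 of its 50 HET UMIs in neuronal clusters, and the part of the choroid plexus markers, at a median of −2.86, in its ratio was not tested. Of the 5, *Gata2* and *Tal1* are factors that specify inhibitory neurons of the midbrain and hindbrain. *Slc6a5* was called lower, from 84.8 to 56.1 CPM, a log2 ratio of −0.60 (−0.66 to −0.54), and *Slc17a7*, a glutamate transporter of granule cells and other excitatory neurons, was called higher at 1.47. Over the neuronal clusters *Slc6a5* went from 97.0 in WT to 65.7 CPM in HET and was not called. In neuron.1 *Slc6a5* was at −0.61, and *Slc32a1* was lower there too. In neuron.3 *Slc6a5* was at −0.61 over the whole cluster and at −0.11 (−0.31 to 0.09) in subcluster 13.

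Across 62 pairs of subcluster and library, which share libraries and depth, the genes most like each member among 13846 were found by Pearson correlation of log2(CPM + 10). For *Gad1* they were *Gm14204* (r = 0.79), *Pax2* (0.79), *Slc6a5* (0.78), *Pax8* (0.77) and *Lypd6b* (0.73). For *Gad2* they were *Slc6a5* (0.81), *Gm14204* (0.77), *Slc32a1* (0.75), *Lamp5* (0.74) and *Pax8* (0.74), and for *Slc32a1* *Lamp5* (0.77), *C1qtnf4* (0.77), *Gad2* (0.75), *Slc6a5* (0.70) and *Rnf227* (0.67). *Slc6a5* was in all 3 lists, whereas *Gad1* and *Slc32a1* were less alike to each other, at 0.51. *Slc6a11* was most like *Acsbg1* (0.94), *Ntsr2* (0.93), *Atp13a4* (0.91), *Fgfr3* (0.91) and *Lgr6* (0.91). *Abat* was most like *Dclk1* (0.70), *Fat3* (0.70), *Robo2* (0.70), *Gria1* (0.69) and *Ppp2r2b* (0.68), and stood at 0.46 with *Gad1* and 0.19 with *Slc6a11*.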

How the data were processed

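The raw UMI counts per gene and nucleus, with cluster, subcluster and reference label of each nucleus, were used as deposited by the authors. They made 10x Chromium 3′ v3.1 libraries, aligned reads with Cell Ranger (version not given in the sources used here) to its default mm10 reference, and used Seurat 4.1 to filter both nuclei and genes, removing called doublets. The doublet score deposited by the authors comes from a caller that is not named. The deposited percent values of mitochondrial and ribosomal UMIs were read and not used in any result. Both UMI totals are in the report, and the lowest nucleus held 1367 UMIs.

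For each library, cluster and subcluster, UMIs of all nuclei were added up and given as CPM. Log2 ratios were computed for groups with at least 30 nuclei in each library. A gene with at least 200 UMIs was called past 1.5-fold where the 95% interval excluded 1. Thinned shares are expected values for 1000 UMIs drawn per nucleus. Values of oligodendrocytes, astrocytes and endothelial cells come from nuclei given the same type by cluster and reference label. Where a cluster or subcluster is named or drawn, all its nuclei were used. Positions are from GENCODE vM21 and promoters from RefSeq. The named genes are the 5 members, fixed lists of other GABA and inhibitory identity genes, and the 5 genes most like each member; *Gm14204*, *Gm14205* and *Gad1os* were added after their values were seen. Some genes of these lists are not reported here. The members and lists were chosen with earlier results of these data known. Alternatives covered weighting of clusters, scaling, totals, filters on nuclei, doublets, background and thresholds. Computation used Python 3.11.15 with scipy 1.17.1, pandas 2.3.3 and numpy 2.4.6, and plots used matplotlib 3.10.9.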

Additional observations from a re-analysis of the deposited data

Results flagged for a closer look

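In 4 pairs of cell groups the HET over WT log2 ratio of a gene lay above 0 in the one and below 0 in the other, with both counting intervals excluding 0. With 1 library per genotype the differences between these groups were not tested. *Gad1* was at 0.29 in neuron.1 subcluster 0 and at −0.57 in neuron.1 subcluster 9. *Gad2* was at 0.37 in neuron.1 subcluster 0 and at −0.89 in neuron.1 subcluster 24. *Gad2* was also at 1.55 in the endothelial cluster, from 12 WT and 17 HET UMIs, and at −0.95 in neuron.4, where 22 WT and 29 HET UMIs put it below the level of oligodendrocytes. In the 161 WT and 48 HET nuclei of the endothelial cluster whose reference label also names that type, *Gad2* was at 0.076 (−3.23 to 2.47), from 7 and 2 UMIs. *Slc6a11* was at 0.39 in the astrocyte cluster and at −0.84 in neuron.4, where it rested on 26 WT and 37 HET UMIs.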

How the results depend on the processing

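No paired analysis was possible because the groups share fewer than 2 replicate numbers and no result comes from a test. With 1 library per genotype no replicate could be left out, and the counts limit only the counting error. Of 71 alternatives for the main results, 37 moved the value by less than its counting interval and 34 moved it further, and no alternative reversed a called value. Over all nuclei, the log2 ratio of *Gad1* was −0.044 with equal cluster weights, −0.035 with equal subcluster weights, −0.056 with the median of all genes set to 0 and −0.34 as a mean over nuclei of CPM. That of *Gad2* was 0.043 with equal cluster weights, 0.052 with the median set to 0 and −0.12 after the oligodendrocyte CPM was subtracted. *Slc32a1* gave −0.62 with equal subcluster weights, −0.66 with the median set to 0, −2.35 after subtraction of the oligodendrocyte CPM and −0.92 after subtraction of the oligodendrocyte UMIs per nucleus, an alternative chosen after seeing the data. *Slc6a11* gave 0.34 with equal cluster weights, 0.21 with equal subcluster weights, 0.64 with the median set to 0, 1.27 after the CPM subtraction and 0.74 after the UMI subtraction. *Abat* gave 0.14, 0.18 and 0.13 with equal cluster weights, equal subcluster weights and the median set to 0, and no background was subtracted from it because oligodendrocytes may express it. With at least 20 UMIs per gene, 1988 genes were called higher in place of 1028. The share of neuronal nuclei with a UMI minus that of oligodendrocytes, in percentage points over both libraries and after thinning to 1000 UMIs, to 500 UMIs and without thinning, was 2.62, 1.36 and 17.9 for *Gad1*, 4.79, 2.56 and 26.3 for *Gad2*, and 6.92, 3.63 and 44.4 for *Abat*. For *Slc32a1* it was 1.00 (0.358 to 1.64) thinned and 16.5 without thinning, and for *Slc6a11* 0.00036 and 5.66. The share of neuronal nuclei with at least 5 UMIs of the 3 synthesis and release genes was 8.37% in WT and 7.08% in HET. At 3 UMIs it was 20.7% and 18.9%, at 10 UMIs 0.948% and 0.464%, and at 5 UMIs in nuclei thinned to 2000 UMIs 0.0967% and 0.0618%. With log2(CPM + 1), 1 of the 5 genes most like *Slc6a11* was found again, and 4 or 5 of those of the other members.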
